A study of Mus musculus with 2 samples.

Results

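The genes described here are 42 members of the pathway that runs from phosphoinositide 3-kinase (PI3K) through the kinase AKT to the kinase mTOR, with its energy-sensing branch. They were taken by symbol from a list of pathway genes, and all 42 were among the 22558 genes of the deposited tables. RNA had been sequenced from breast tumour cells of FVB mice, an inbred strain, which were dissociated and sorted by flow cytometry at once, with no treatment. One library held tumor initiating cells (TIC), the fraction that gives rise to new tumours, and the other held non-tumorigenic cells (NTC). Strain, tumour origin and sorting were shared by both. The surface markers of the sort, the oncogene that drove the tumours and the number of animals behind each library were not stated in the sources used here.

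PI3K is a lipid kinase that growth factor receptors and insulin receptor substrates bring to the membrane, where its product recruits PDK1 and AKT. AKT switches off the TSC complex and so frees RHEB to activate mTOR, the kinase of the complexes mTORC1 and mTORC2, which drive protein synthesis and growth. Shortage of energy acts the other way, through the kinase LKB1 and the AMP-activated protein kinase (AMPK), which restrain mTORC1 and activate the autophagy kinase ULK1. In the mammary gland the pathway carries insulin and growth factor signals that support growth of the ducts and the secretory cells, and it is among the pathways most often mutated in breast cancer.

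Each group had 1 library, so there is no spread between replicates and no test, and every difference is one between these 2 libraries. Levels are in FPKM (fragments per kilobase of transcript scaled to the mapped fragments of the library), which allows for gene length. Little RNA was amplified to cDNA, which can change a gene's share of reads with its length and composition. Comparisons between genes, such as paralog shares, are therefore less certain. Ratios are log2((TIC + 1)/(NTC + 1)), with 1 FPKM added to each level, so they understate the difference of low genes. Genes whose mean level was 1 FPKM or more are called measured, and a gene is called 2-fold different when this ratio is at least 1 in size. Depth was estimated only roughly from low values. A level of 1 FPKM rested on about 21.0 reads per kilobase of transcript in TIC and 21.6 in NTC, and these figures cover counting alone. An exact 0 is not read as absence, since Ndufs5, a subunit of respiratory complex I that respiring cells use, was listed at 0 in both libraries.

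The libraries differed in lineage markers far more than in the pathway. All 10 basal markers lay at least 2-fold higher in TIC, at a summed level of 4020 FPKM in TIC against 41.1 in NTC, and all 10 luminal markers were at least 2-fold lower, with 26.6 FPKM in TIC against 3420 in NTC. Neither list had a marker at 0 in either library. Among 6 fibroblast markers, 3 were at least 2-fold higher in TIC (summed level 164 FPKM in TIC, 2.43 FPKM in NTC), with Dcn holding 152 FPKM of the TIC sum. The other 3, Col1a1, Col3a1 and Lum, were at or below 0.573 FPKM in both libraries and not measured. Blood cell markers were low, with 6 lymphoid markers summing to 0.0801 FPKM in TIC and 0 in NTC, 5 myeloid markers to 2.44 FPKM in TIC and 2.23 in NTC, and 4 erythroid markers to 0.518 FPKM in TIC and 6.20 in NTC. Ptprc, the antigen shared by white blood cells, was listed at 0 in both libraries. The 5 endothelial markers summed to 3.07 FPKM in TIC and 0.351 in NTC. Basal or luminal identity and tumour-initiating state cannot be told apart with these libraries, and the part of lineage in the values below was not tested. In sorted bulk cells, fewer cells of a type and less RNA per cell cannot be told apart either.

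Taken as a set, the pathway members were spread much like all other genes. Of the 42, 39 were measured, and Pik3cd, Inpp4b and Sgk3 lay below the limit. At least 2-fold higher in TIC were 5 of the 39 (12.8%), against 14.6% of all 12004 measured genes, and 7 (17.9%) were at least 2-fold lower, against 13.8%. The remaining 27 lay within 2-fold. The median log2 ratio was -0.08 for the members and -0.16 for all measured genes. Centring the ratios on the median gene adds 0.16 to each of them and turns the sign of the members' median, so ratios near 0 are given below without a direction. The median size of the ratio, whichever its sign, was 0.55 for the members and 0.54 for all measured genes.

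**Figure D1:**
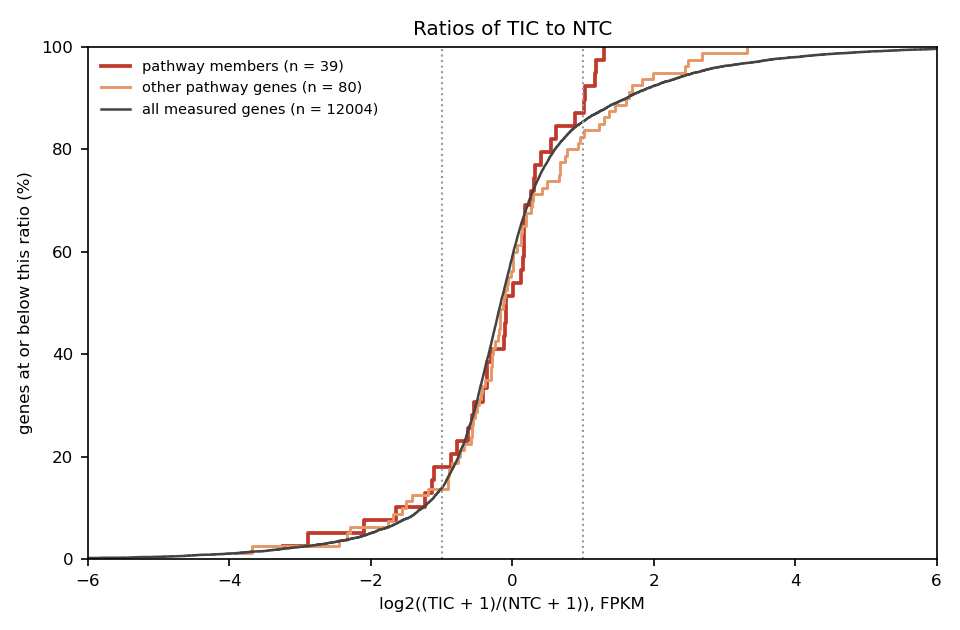
Share of genes (vertical axis, percent) at or below each log2 ratio of TIC to NTC (horizontal axis, FPKM with 1 added) for the 39 measured pathway members, 80 other measured genes of the pathway and all 12004 measured genes. Dotted lines mark 2-fold. The 3 curves run close together, and the members end at 1.30 on the high side and start at -3.24 on the low side.

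The 12 members past 2-fold were Ddit4, Pik3r2, Pik3r3, Ulk1 and Prkab2 on the higher side and Prkaa2, Pik3cg, Irs1, Pik3r1, Rps6kb2, Pik3cb and Prkab1 on the lower side. All of them apart from Ddit4 and Ulk1 have a paralog among the members. Of these, Prkaa2, Pik3cg, Irs1 and Pik3r1 stayed past 2-fold under every alternative calculation that kept them (the filter at 5 FPKM dropped Pik3cg), and the other 8 fell short of it under at least 1. All 8 fell short with 5 FPKM added in place of 1, under which the 5 higher genes reached at most 0.95.

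**Figure D2:**
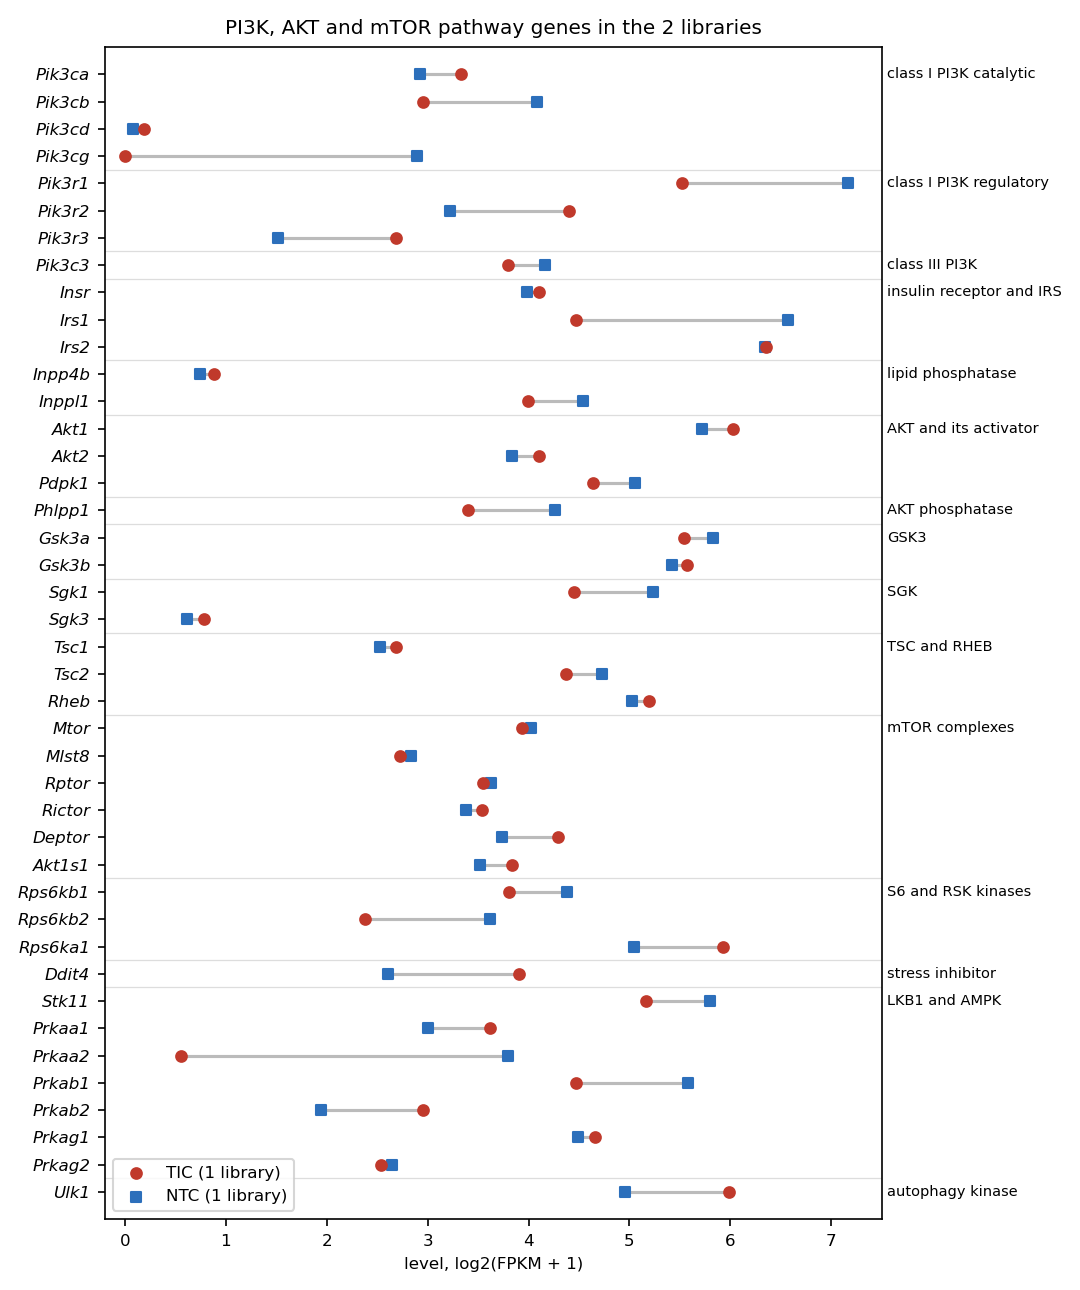
Level of each of the 42 members, as log2(FPKM + 1) on the horizontal axis, in the TIC library (circles) and the NTC library (squares), grouped by role with a line joining the 2 libraries. The longest lines are those of Prkaa2, Pik3cg, Irs1 and Pik3r1, each with the NTC square on the right, while those of the mTOR complexes are short.

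The catalytic subunits of class I PI3K, which phosphorylate the membrane lipid, differed in which gene was highest. Pik3ca, which encodes p110-alpha and is the form most often mutated in breast cancer, had 9.09 FPKM in TIC against 6.60 in NTC, a log2 ratio of 0.41. Pik3cb, which encodes p110-beta, had 6.76 FPKM in TIC against 16.0 in NTC, a log2 ratio of -1.13 (chromosome 9, 98938821 to 99040630, build mm9). Thus Pik3ca was the highest catalytic gene in TIC with 56.8% of the summed FPKM of the 4 genes, against 22.7% in NTC, and Pik3cb was the highest in NTC with 55.0%, against 42.3% in TIC. The call for Pik3cb was lost with ratios centred on the median gene (-0.97).

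Pik3cg and Pik3cd encode p110-gamma and p110-delta, which are known mainly from white blood cells. Pik3cg, on chromosome 12 from 32858262 to 32893514 in mm9, was listed at 0 in TIC, against 6.44 FPKM in NTC, close to Pik3ca in that library. It counts as 2-fold lower through the added 1 FPKM, and no fold is given against a listed 0. Pik3cd had 0.141 FPKM in TIC against 0.0586 in NTC, below the limit for measured genes. The 6 lymphoid markers summed to 0.0801 FPKM in TIC and 0 in NTC and the 5 myeloid markers to 2.44 FPKM in TIC and 2.23 in NTC, and the part of white blood cells in the Pik3cg value was not tested. Of the subunits that bind p110-gamma, Pik3r5 had 2.27 FPKM in TIC against 0.0138 in NTC, and Pik3r6 was listed at 0 in both, so the library with Pik3cg had next to no Pik3r5.

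The regulatory subunits, which hold the catalytic subunit stable and dock it on phosphorylated receptors, differed in direction. Pik3r1, the source of p85-alpha and its shorter forms, had 44.8 FPKM in TIC against 142.3 in NTC, a log2 ratio of -1.65 (chromosome 13, 102450718 to 102538172, build mm9). Pik3r2, which encodes p85-beta, had 20.2 FPKM in TIC against 8.35 in NTC (log2 ratio 1.18). Pik3r3, which encodes p55-gamma, had 5.42 FPKM in TIC against 1.86 in NTC (log2 ratio 1.17). Pik3r1 was the highest of the 3 in both libraries, but its share of their summed level was 63.7% in TIC against 93.3% in NTC. That of Pik3r2 was 28.6% in TIC against 5.47% in NTC. The summed level of the 3 was 70.4 FPKM in TIC against 153 in NTC, so the higher values of Pik3r2 and Pik3r3 made up little of the difference in Pik3r1. Pik3c3, the class III kinase of endosomes and autophagy, had 12.9 FPKM in TIC against 17.0 in NTC, within 2-fold.

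Of the 3 members upstream of PI3K, Irs1 passed 2-fold and Irs2 and Insr did not. Irs1, an adaptor that links the insulin and IGF receptors to PI3K, had 21.1 FPKM in TIC against 93.8 in NTC, a log2 ratio of -2.10 (chromosome 1, 82229680 to 82288014, build mm9). Irs2, its relative, had 80.7 FPKM in TIC against 80.3 in NTC, and Insr, the insulin receptor, had 16.2 FPKM in TIC against 14.9 in NTC. Irs2 therefore made up 79.3% of the summed IRS level in TIC against 46.1% in NTC. The row of Irs2 is described in the files as holding several gene identifiers, so its level is less certain than that of Irs1.

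Downstream of PI3K, the kinases Akt1, Akt2 and Pdpk1 had similar levels in the 2 libraries. Akt1 had 64.0 FPKM in TIC against 51.6 in NTC, and Akt2, the form best known from insulin action, had 16.2 FPKM in TIC against 13.2 in NTC. The proportion of the pair was nearly the same, with Akt1 at 79.8% of their sum in TIC and 79.6% in NTC. Pdpk1, which encodes the AKT-activating kinase PDK1, had 23.9 FPKM in TIC against 32.2 in NTC. Log2 ratios of these 3 genes ran from -0.41 to 0.31.

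The 3 members that act against the pathway at the level of lipids and AKT lay within 2-fold or below the limit. Inppl1, which encodes the lipid phosphatase SHIP2, had 14.9 FPKM in TIC against 22.3 in NTC. Inpp4b, a lipid phosphatase known as a tumour suppressor in human basal-like breast cancer, had 0.849 FPKM in TIC against 0.675 in NTC. Its mean lay below the limit for measured genes. Phlpp1, a phosphatase that acts on AKT, had 9.52 FPKM in TIC against 18.3 in NTC, with a log2 ratio of -0.87 just short of 2-fold.

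Among kinases that work beside or below AKT, the GSK3 genes, which AKT inhibits, had almost equal levels. Gsk3a had 45.4 FPKM in TIC against 56.0 in NTC, and Gsk3b had 46.5 FPKM in TIC against 41.9 in NTC. Sgk1, an AKT-like kinase that answers to glucocorticoids and mTORC2, had 20.9 FPKM in TIC against 36.6 in NTC (log2 ratio -0.78). Its relative Sgk3 was below the limit, with 0.720 FPKM in TIC and 0.534 FPKM in NTC.

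The 9 members that belong to the TSC complex, RHEB and the mTOR complexes lay within 2-fold; Prr5, a further mTORC2 subunit outside the members, did not and is given with the other genes of the pathway. Tsc1 had 5.45 FPKM in TIC against 4.76 in NTC, Tsc2 had 19.7 against 25.4 FPKM, and Rheb, the GTPase that activates mTORC1, had 35.7 against 31.5 FPKM. Mtor itself had 14.3 FPKM in TIC against 15.3 in NTC. Mlst8, the subunit shared by both complexes, had 5.60 FPKM in TIC against 6.15 in NTC. The defining subunits were as close, with Rptor of mTORC1 at 10.7 FPKM in TIC against 11.4 in NTC and Rictor of mTORC2 at 10.6 against 9.38 FPKM. Deptor, an inhibitor that binds mTOR, had 18.6 FPKM in TIC against 12.4 in NTC, and its log2 ratio of 0.55 was the furthest from 0 of the 9. Akt1s1, which encodes the mTORC1 inhibitor PRAS40, had 13.3 FPKM in TIC against 10.5 in NTC. Of all measured genes, 71.6% also lay within 2-fold, so an even level is the usual case. Tsc2, Mtor, Mlst8 and Akt1s1 share their listed locus with another gene, and reads near such borders may have been assigned to either.

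The S6 kinases, which mTORC1 activates to promote translation, had a summed level of 17.2 FPKM in TIC against 31.0 in NTC. The log2 ratio of this sum was -0.82, within 2-fold. Rps6kb2, which encodes S6K2, had 4.21 FPKM in TIC against 11.3 in NTC, a log2 ratio of -1.23 (chromosome 19, 4156977 to 4163245, build mm9). Rps6kb1, which encodes S6K1, had 13.0 FPKM in TIC against 19.8 in NTC, a log2 ratio of -0.57 within 2-fold. The row of Rps6kb1 is described as holding several gene identifiers, so its level and the sum are less certain. Rps6ka1 encodes RSK1, a kinase of ribosomal protein S6 that ERK activates. It had 60.0 FPKM in TIC against 32.1 in NTC, a log2 ratio of 0.88 that passed 2-fold with ratios centred on the median gene (1.05) or levels rescaled to a common sum (1.07).

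Ddit4 and Ulk1, which answer to stress and starvation, were higher in TIC. Ddit4 encodes REDD1, an inhibitor of mTORC1 induced by low oxygen and glucocorticoids. It had 14.0 FPKM in TIC against 5.09 in NTC (log2 ratio 1.30, chromosome 10, 59412423 to 59414518, build mm9). This was the highest ratio among the members with 1 FPKM added, while with 0.1 FPKM added Pik3r3 reached 1.49 and Ddit4 1.44. Ulk1, the kinase that starts autophagy and that mTORC1 inhibits, had 62.4 FPKM in TIC against 30.0 in NTC (log2 ratio 1.03, chromosome 5, 111213508 to 111239100).

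AMPK, a trimer of a catalytic alpha, a scaffolding beta and an AMP-binding gamma subunit, differed in the shares of its alpha and beta paralogs, while all 6 of its member genes were above 0 in both libraries. Prkaa2, which encodes the catalytic subunit alpha-2, had 0.471 FPKM in TIC against 12.9 in NTC, a level 27.5 times as high in NTC (log2 ratio -3.24, chromosome 4, 104702255 to 104782503, build mm9). With 1 FPKM added this was the largest ratio of any member in size. With 0.1 FPKM added, Pik3cg, listed at 0 in TIC, went beyond it (-6.03, against -4.51 for Prkaa2). It also did so with levels rescaled to a larger common sum (-4.18, against -3.87 for Prkaa2). There 1 was still added and weighed less, much as a smaller added constant would. The TIC level of Prkaa2 corresponds to about 9.88 reads per kilobase, so it is low but above a single read. Prkaa1, which encodes alpha-1, had 11.3 FPKM in TIC against 7.0 in NTC, within 2-fold (log2 ratio 0.62). The alpha-1 gene held 96.0% of the summed alpha level in TIC against 35.1% in NTC, and the alpha-2 gene held 4.01% in TIC against 64.9% in NTC. The sum of the pair was 11.7 FPKM in TIC against 19.9 in NTC.

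The beta subunits showed a smaller shift. Prkab1, which encodes beta-1, had 21.2 FPKM in TIC against 46.8 in NTC (log2 ratio -1.11), a call that was lost with centred ratios (-0.94) and with levels rescaled to a common sum (-0.96). Prkab2, which encodes beta-2, had 6.75 FPKM in TIC against 2.85 in NTC, just past 2-fold (log2 ratio 1.01). Beta-1 made up 75.8% of the pair in TIC against 94.3% in NTC. The gamma subunits were alike, with Prkag1 at 24.2 FPKM in TIC against 21.4 in NTC and Prkag2 at 4.81 against 5.25 FPKM. Stk11, which encodes the AMPK-activating kinase LKB1, had 34.9 FPKM in TIC against 54.5 in NTC, within 2-fold. The rows of Prkaa1, Prkaa2, Prkab2 and Prkag2 are described in the files as holding several gene identifiers, so their levels are less certain.

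**Figure D3:**
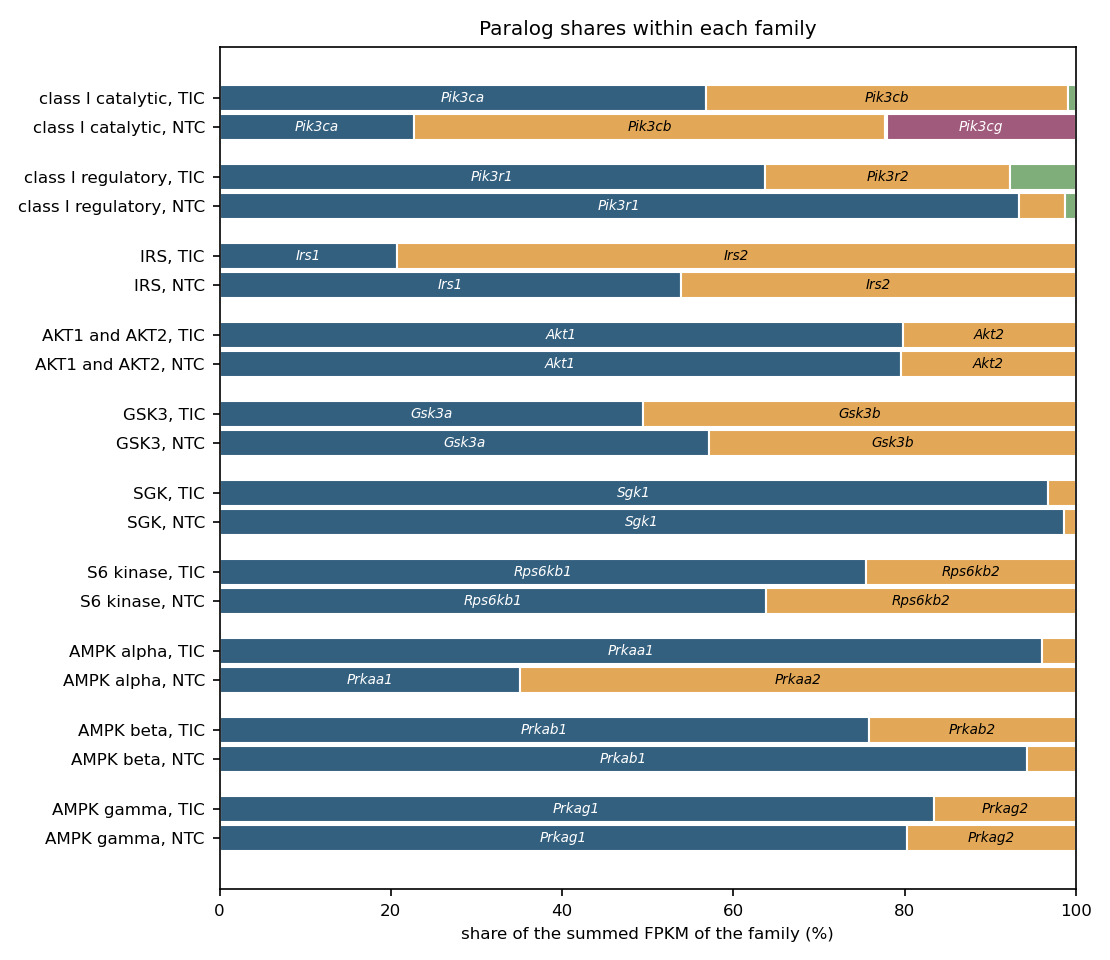
Share of the summed FPKM of a family (horizontal axis, percent) held by each paralog, with the TIC library above the NTC library for each of 10 families. Unlabelled slivers are paralogs with small shares. The divisions differ most for the AMPK alpha pair (Prkaa2 4.01% in TIC, 64.9% in NTC), the class I catalytic genes and the IRS pair, and are nearly equal for Akt1 with Akt2 and for the AMPK gamma pair.

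The promoters of the AMPK catalytic pair and of Pik3cg are shown because Prkaa2 and Pik3cg had the ratios furthest from 0 among the members, and because paralogs can be read side by side. They are RefSeq sequences of build GRCm38.p6, from 250 bases before the start of the transcript to 50 after it. Each is written 5′ to 3′ on the strand of its gene. Capitals mark a C followed directly by a G on that strand, called a CG pair below. Prkaa2 lies on the minus strand at chr4:105109849-105110148, Prkaa1 on the plus strand at chr15:5143611-5143910, and the first of 2 promoters of Pik3cg on the minus strand at chr12:32208610-32208909.
Prkaa2: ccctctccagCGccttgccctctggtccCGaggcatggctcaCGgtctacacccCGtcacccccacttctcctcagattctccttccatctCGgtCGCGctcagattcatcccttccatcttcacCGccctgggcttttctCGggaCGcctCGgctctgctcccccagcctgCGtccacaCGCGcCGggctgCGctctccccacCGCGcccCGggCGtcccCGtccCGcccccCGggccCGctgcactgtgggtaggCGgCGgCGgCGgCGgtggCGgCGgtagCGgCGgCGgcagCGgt
Prkaa1: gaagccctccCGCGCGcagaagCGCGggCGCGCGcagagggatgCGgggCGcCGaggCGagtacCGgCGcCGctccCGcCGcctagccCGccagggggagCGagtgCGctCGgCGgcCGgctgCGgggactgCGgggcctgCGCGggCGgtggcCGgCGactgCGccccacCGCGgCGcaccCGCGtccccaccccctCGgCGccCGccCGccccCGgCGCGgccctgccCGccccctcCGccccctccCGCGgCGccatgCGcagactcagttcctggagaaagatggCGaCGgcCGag
Pik3cg: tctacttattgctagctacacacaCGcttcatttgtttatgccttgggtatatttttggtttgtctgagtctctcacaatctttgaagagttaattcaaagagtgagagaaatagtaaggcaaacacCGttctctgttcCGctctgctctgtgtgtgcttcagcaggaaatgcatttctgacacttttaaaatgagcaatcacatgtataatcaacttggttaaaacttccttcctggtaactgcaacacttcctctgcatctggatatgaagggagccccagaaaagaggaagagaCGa

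Both AMPK promoters were rich in CG and that of Pik3cg was poor in it. Prkaa2 held 35 CG pairs, a number reached by 6.95% of the 32851 promoters in the table, and Prkaa1 held 52, reached by 0.575%. Pik3cg held 4, and 38% of all promoters had as few. A promoter was found for 37 of the 42 members, 58 promoters in all, with a median of 20.5 CG pairs against 7 over the whole table. The whole table holds promoters of 27025 genes, against 12004 genes measured here, and genes with several promoters count more than once. No median over the measured genes was taken, so these values do not set the members apart from measured genes. DNA methylation and factor binding were not measured in these data.

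Other genes of the pathway, 96 by a list of further subunits, regulators and outputs, were described in the same way. Of these, 90 were found and 80 measured, of which 14 (17.5%) passed 2-fold on the higher side in TIC and 11 (13.8%) on the lower side, again close to the shares of all measured genes. Their median log2 ratio was -0.13. The list was drawn up with earlier results of these data known. Shares given for its groups below therefore describe the listed genes and are no independent comparison with all measured genes.

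Adaptors and inhibitors around PI3K differed widely and in both directions. Pik3ip1, an inhibitor that binds the catalytic subunit, had 29.6 FPKM in TIC against 2.07 in NTC (log2 ratio 3.32). Grb14, an adaptor that inhibits the insulin receptor, had 10.1 FPKM in TIC against 1.05 in NTC (log2 ratio 2.44), and Igf1r, the receptor of insulin-like growth factor, had 49.0 against 18.4 FPKM (log2 ratio 1.36). On the lower side, the docking protein Gab2 had 0.171 FPKM in TIC against 16.7 in NTC (log2 ratio -3.92), and its relative Gab1 had 23.5 against 78.2 FPKM (log2 ratio -1.69). Pik3ap1, an adaptor best known from B cells, was listed at 0 in TIC, against 11.9 FPKM in NTC. The class II kinase gene Pik3c2b had 8.31 FPKM in TIC against 20.4 in NTC (log2 ratio -1.20). With Pik3r5, these 8 were the genes past 2-fold among 11 measured in the group (72.7%, against 28.4% of all measured genes). Pik3r5, Pik3ap1 and Gab2 were under 1 FPKM in 1 of the libraries and were measured through the other.

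Lipid phosphatases of the list differed in both directions. Inpp5d, which encodes SHIP1 and is known mainly from blood cells, had 3.76 FPKM in TIC against 0.196 in NTC (log2 ratio 1.99). Inpp5k had 8.51 FPKM in TIC against 27.1 in NTC (log2 ratio -1.57), and Inpp5j was listed at 0 in TIC, against 4.47 FPKM in NTC. Trib2, a pseudokinase that binds AKT, had 45.3 FPKM in TIC against 7.23 in NTC (log2 ratio 2.49).

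Of 19 measured genes that tell mTORC1 about amino acids, 17 (89.5%) lay within 2-fold, against 71.6% of all measured genes. The others were Sesn1, which encodes a sestrin that restrains mTORC1, with 15.5 FPKM in TIC against 3.66 in NTC (log2 ratio 1.83), and Rragd, which encodes one of the Rag GTPases, with 2.88 against 0.270 FPKM (log2 ratio 1.61). Ddit4l, the relative of Ddit4, had 11.8 FPKM in TIC against 0.998 in NTC (log2 ratio 2.68). Among mTORC2 subunits, Prr5 had 5.90 FPKM in TIC against 33.8 in NTC (log2 ratio -2.34), whereas Mapkap1 had 25.2 against 25.7 FPKM. Tbc1d7, the remaining subunit of the TSC complex, had 7.28 FPKM in TIC against 9.19 in NTC, and Pik3r4, the partner of Pik3c3, had 10.5 against 11.9 FPKM.

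Outputs of mTORC1 included the translation repressor gene Eif4ebp2, with 104.5 FPKM in TIC against 356.8 in NTC (log2 ratio -1.76), and Lpin1, a lipid phosphatase that mTORC1 keeps out of the nucleus, with 1.96 against 6.91 FPKM (log2 ratio -1.42). The other 7 of 9 (77.8%) lay within 2-fold, near the 71.6% of all measured genes. So did all 3 measured FOXO genes, whose products AKT keeps out of the nucleus. Of the 9, 7 had a ratio below 0, with a median of -0.76 against -0.16 for all measured genes. All 3 FOXO genes were also below 0, with a median of -0.55. Over all 12004 measured genes, 7092 had a ratio below 0. Activity of mTORC1 or AKT was not measured in these data. Ulk2, Rb1cc1, Atg13 and Becn1, listed with ULK1 as genes of autophagy initiation, lay within 2-fold as well.

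In the LKB1 and AMPK branch, 3 of 10 further genes (30%) passed 2-fold, close to the 28.4% of all measured genes. Camkk2, a calcium-dependent kinase that activates AMPK, had 12.2 FPKM in TIC against 3.23 in NTC (log2 ratio 1.64), and Sik2, an AMPK-related kinase, had 33.3 against 13.0 FPKM (log2 ratio 1.30). Cab39l, a relative of the LKB1 partner Cab39, had 6.66 FPKM in TIC against 20.6 in NTC (log2 ratio -1.497), while Cab39 had 20.6 against 24.6 FPKM and Strada, the pseudokinase of the LKB1 complex, had 10.1 against 8.26 FPKM. Prkag3, the gamma-3 gene known from skeletal muscle, reached 0.988 FPKM in TIC, against a listed 0 in NTC, and fell below the limit. Of 7 further measured genes of the ribosomal S6 kinase family, Rps6ka2 (2.99 FPKM in TIC, 0.454 FPKM in NTC), Rps6ka3 (53.5 in TIC, 26.1 in NTC) and Rps6ka4 (7.70 in TIC, 2.72 in NTC) were at least 2-fold higher in TIC. Rps6kl1 was at least 2-fold lower, with 0.0269 FPKM in TIC against 4.04 in NTC, as was the member Rps6kb2. Rps6ka5, Rps6ka6 and Rps6kc1 lay within 2-fold (log2 ratios -0.53, -0.39 and 0.01). Of these 7 genes, 42.9% were thus higher and 14.3% lower, against 14.6% and 13.8% of all measured genes. Rps6ka2 and Rps6kl1 were under 1 FPKM in 1 of the libraries and were measured through the other.

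**Figure D4:**
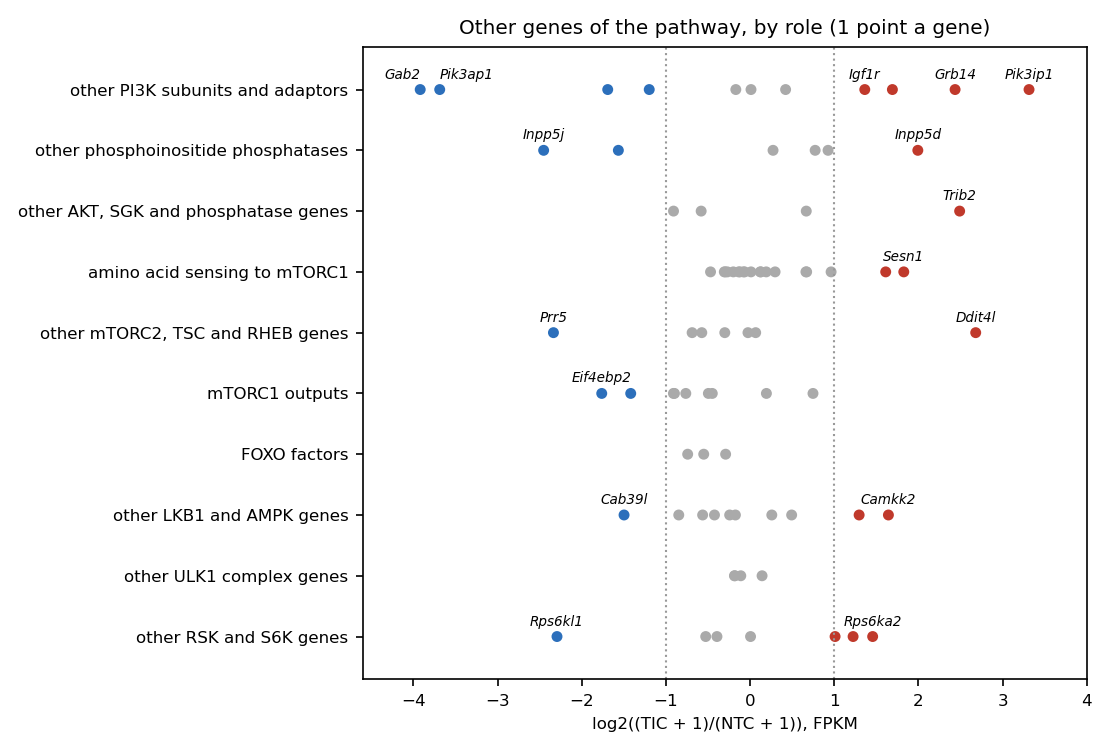
Log2 ratio of TIC to NTC (horizontal axis, FPKM with 1 added) of the 80 measured other genes of the pathway, 1 point a gene, by role. Dotted lines mark 2-fold, red points passed it on the higher side in TIC and blue points on the lower side, and some of the genes in the text are named. Points spread widely among PI3K adaptors (-3.92 to 3.32) and sit close to 0 for amino acid sensing (17 of 19 within 2-fold).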

How the data were processed

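RNA was sequenced from 2 libraries, 1 of TIC and 1 of NTC, grouped by the sample descriptions. The authors deposited FPKM values, 1 for each gene symbol. Per the labels' protocols, little RNA was amplified to cDNA before library construction, which can change a gene's share of reads with its length and composition. Cufflinks, Cuffdiff, TopHat 1.4.0, CASAVA 1.8.2 and build mm9 are listed without roles or settings, per the submitters' processing notes. The locus heading names hg19, although mouse genes lie there, and positions are given in mm9. Starts were counted from 0 (197 lay 1 below the start of the same gene in GRCm38, and 11 equalled it), so 1 was added.

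No count model was used on these FPKM. Ratios, counts and shares were computed in Python 3.11.15 with pandas 2.3.3. The ratio and its call were run first on simulated levels without noise, with changes put only into well expressed genes. That run checked the code and not the calls at low levels. Depth was estimated from receptor genes with a locus under 1.5 kb, as the median of FPKM times kb between 0.035 and 0.065, which gave 0.0476 in TIC (23 genes) and 0.0463 in NTC (39 genes). The window bounds the estimate. In all, 7 members are described as holding several gene identifiers (Irs2, Inpp4b, Rps6kb1, Prkaa1, Prkaa2, Prkab2 and Prkag2). A listed locus shared with another gene was found for 8 (Inppl1, Gsk3b, Tsc2, Mtor, Mlst8, Akt1s1, Stk11 and Prkag2), with strand not recorded. The levels of both sets are less certain.

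Members and lists were chosen with earlier results of these data known. Every member is named. Of the other pathway genes, the 4 with the largest ratio in each direction, genes that make up a count of 5 or fewer, and further subunits of a member's complex are named; some genes are not reported here and were left out of the list. Alternatives were other added constants, filters, scalings and a lower fold.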

Additional observations from a re-analysis of the deposited data

How the results depend on the processing

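No called member changed direction under any of the alternatives, and 4 of 12 stayed past 2-fold in all that kept them. With 5 FPKM added in place of 1, members at least 2-fold different numbered 0 higher and 4 lower in TIC, and other pathway genes 8 higher and 7 lower; of all measured genes 9.05% were then higher and 7.67% lower. With a mean of at least 5 FPKM required, 3 of 36 members were higher, and so were 12.3% of all genes that passed this filter. At a threshold of 1.5-fold, 18 of the 80 measured other pathway genes were lower, and so were 26.7% of all measured genes. The median log2 ratio of members was 0.06 with no filter, 0.08 when centred on the median gene and 0.18 with levels rescaled to a common sum, and that of the other genes was 0.04 when centred and 0.05 when rescaled. These shifts follow from the scaling and from which genes are kept. With levels rescaled to a larger common sum, 1 was still added, so the added constant also weighed less. Other counts stayed within 1.5 times and other medians within 0.1 of the values reported. No paired analysis was possible because each group has 1 library. By the rough depth estimate, levels under 1 FPKM rest on fewer than about 21.0 reads per kilobase of transcript in TIC and 21.6 in NTC.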
